A study of Mus musculus with 60 samples.

Results

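Expression was examined for 10 genes that encode receptors of the TGF-beta, activin and BMP ligands and the Smad proteins behind them, Tgfbr1, Tgfbr2, Acvr1b, Acvr2a, Acvr2b, Bmpr1a, Bmpr2, Smad2, Smad3 and Smad4. They were chosen by name, and each matched 1 of the 27238 genes in the expression table through its Ensembl identifier. Single mouse embryos of the BDF1 background were sequenced at 6 stages, the 1-cell, 2-cell, 4-cell and 8-cell stages, the morula and the blastula. In vivo embryos came from superovulated C57BL/6 females mated with DBA2 males. NTC embryos were made by injecting the nucleus of a cumulus cell (CC) into an enucleated oocyte of a young adult BDF1 female, and NTM embryos with the nucleus of a mouse embryonic fibroblast (MEF) grown from mid-gestation fetuses. All NT embryos were activated with strontium in the presence of Scriptaid, a histone deacetylase inhibitor, and were then cultured in vitro. NT and in vivo embryos thus differ in the donor nucleus, the oocyte strain, enucleation, activation in place of fertilization, the drug and the culture. When NT and in vivo embryos are compared, these cannot be told apart. CCs and MEFs were sequenced as the donor groups. Each of the 20 groups had 3 libraries, 60 in all.

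A TGF-beta family ligand brings a type II receptor kinase and a type I receptor kinase together on the cell surface, and the type II kinase switches on the type I kinase. Tgfbr2 (TGF-beta), Acvr2a and Acvr2b (activins, Nodal and several BMPs) and Bmpr2 (BMPs) are type II receptors. Tgfbr1, Acvr1b and Bmpr1a are the type I receptors that act with them for TGF-beta, for activin and Nodal, and for BMPs. Tgfbr1 and Acvr1b phosphorylate Smad2 and Smad3, which bind Smad4 and enter the nucleus, while Bmpr1a acts through Smad1 and Smad5, which also bind Smad4. In the mouse embryo Nodal and activin signals through Smad2 and BMP signals through Bmpr1a are known for their roles around and after implantation.

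In these libraries Smad3 was abundant in every 1-cell and 2-cell embryo and fell from the 2-cell to the 4-cell stage in all 3 embryo types. Smad2 stayed high to the 4-cell stage in in vivo embryos but was already low in NTC and NTM 4-cell embryos, and the change from the 4-cell to the 8-cell stage differed between embryo types. At the 4-cell stage Smad4 and Bmpr1a were higher in NTC than in in vivo embryos. Tgfbr2 was at or near 0 in all 18 in vivo embryos, but was measured in all 6 NT blastulas, and among donor cells it was high in MEFs and near 0 in CCs, while Tgfbr1 was high in CCs.

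Levels are given as RPKM, reads relative to the length of a gene's exons and to the depth of the library. Comparing levels between genes assumes even coverage along the transcripts, which was not checked. Embryo libraries had 5294167 to 26281508 reads on genes with a median of 14718210, and donor libraries had 31558140 to 47830132. At these depths a count of 0 allows up to 3 reads, which for Tgfbr2 came to 0.0559 RPKM on average over the in vivo blastulas. That limit covers counting error only, since reads were amplified without molecular identifiers. Differences were tested on log2(RPKM + 1) with limma over all genes whose mean RPKM reached 0.5 in the compared libraries. A gene was called when its Benjamini-Hochberg adjusted p was under 0.05 and its level changed by 1 or more log2 units. The added 1 makes the fold changes of low genes too small. A gene near 0 in 1 group can pass the filter only through the group where it is high. Of 480 pairings of a member with 48 comparisons, 416 passed the filter (6 to 10 members per comparison) and 42 were called. All 10 members were called at least once, and 8 of them in the 26 calls between embryo groups, the exceptions being Tgfbr1 and Acvr1b. The labels do not say how the 3 libraries of a group were spread over independent collections, so p-values measure the spread between these libraries. In bulk measurements of whole embryos fewer cells of a type and less RNA per cell cannot be told apart.

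The labels of the donor cells and embryos were checked against marker genes. All 10 fibroblast markers had a median of at least 1 RPKM in MEFs, with a summed level of 8034 to 10190 RPKM, against 4.40 to 6.05 in CCs. Of 10 cumulus and granulosa markers, 6 did so in CCs and 3 in MEFs, and Has2 and Pgr were at 0 in all CC libraries. Their summed level overlapped between the donors, at 485 to 1249 RPKM in CCs and 516 to 1203 RPKM in MEFs, so the sum of this list did not set CCs apart. Oocyte markers summed to 2916 RPKM or more in every 1-cell library. In vivo 1-cell replicate 1 stood apart from the others of its group, with 9491 genes above 0 against 12187 and 12593 and 13.4% mitochondrial reads against 4.71% and 6.26%. In vivo blastulas had only 7730 to 7808 genes above 0, against 11771 to 13000 in NTC blastulas. The mitochondrial share was 5.68% to 8.87% in in vivo 4-cell embryos and 31.6% to 34.7% in NTC 4-cell embryos, and 29.6% to 40.4% in NTM 4-cell embryos.

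To show what lies just before the start of the genes with the largest changes, the 250 bases upstream of a RefSeq start site are printed below for Smad3 (the largest change between embryo stages) and for Tgfbr1 and Tgfbr2 (opposite in the donor cells). The build is GRCm38.p6, and they lie at chr9:63757995-63758244 (minus strand), chr4:47352972-47353221 (plus strand) and chr9:116175364-116175613 (minus strand). Each reads 5′ to 3′ along the gene, with capitals marking the GC box GGGCGG and the Smad-binding 5-mer CAGAC on either strand.
Smad3: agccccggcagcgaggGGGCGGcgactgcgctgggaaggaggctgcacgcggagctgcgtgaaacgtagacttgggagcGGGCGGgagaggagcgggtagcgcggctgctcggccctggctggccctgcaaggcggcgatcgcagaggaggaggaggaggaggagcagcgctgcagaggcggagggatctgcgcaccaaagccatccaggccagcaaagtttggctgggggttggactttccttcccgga
Tgfbr1: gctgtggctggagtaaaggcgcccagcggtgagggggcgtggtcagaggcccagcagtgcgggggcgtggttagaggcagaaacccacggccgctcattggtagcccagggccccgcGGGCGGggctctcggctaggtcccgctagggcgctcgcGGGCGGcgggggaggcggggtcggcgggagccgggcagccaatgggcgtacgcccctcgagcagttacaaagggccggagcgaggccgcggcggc
Tgfbr2: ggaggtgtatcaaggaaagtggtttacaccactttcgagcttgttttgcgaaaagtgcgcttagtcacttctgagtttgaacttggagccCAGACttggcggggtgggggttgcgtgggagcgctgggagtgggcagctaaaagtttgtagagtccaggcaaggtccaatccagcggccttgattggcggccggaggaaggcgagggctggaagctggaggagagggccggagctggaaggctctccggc
The Smad3 and Tgfbr1 stretches each held 2 GC boxes and no CAGAC, and the Tgfbr2 stretch held no GC box and 1 CAGAC. RefSeq lists a second Tgfbr1 start, with its 250 bases at chr4:47385966-47386215 (not printed), which held no GC box and 1 CAGAC. Of its bases 52.8% were G or C. A GC box was found in 32.7% and CAGAC in 42.2% of 32851 RefSeq promoters of the same length. The CCAAT box was found in 33.8% of them and 2 times each in the Tgfbr1 and Tgfbr2 stretches, and TATAAA in 12.4% and in none of the 3. The GC content was 69.2% for Smad3, 74.8% for the printed Tgfbr1 stretch and 58.4% for Tgfbr2, against a median of 52.4% over all promoters. These matches are descriptions of the letters and were not linked to the expression values. RefSeq promoters were at hand for 8 of the 10 members.

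**Figure D1:**
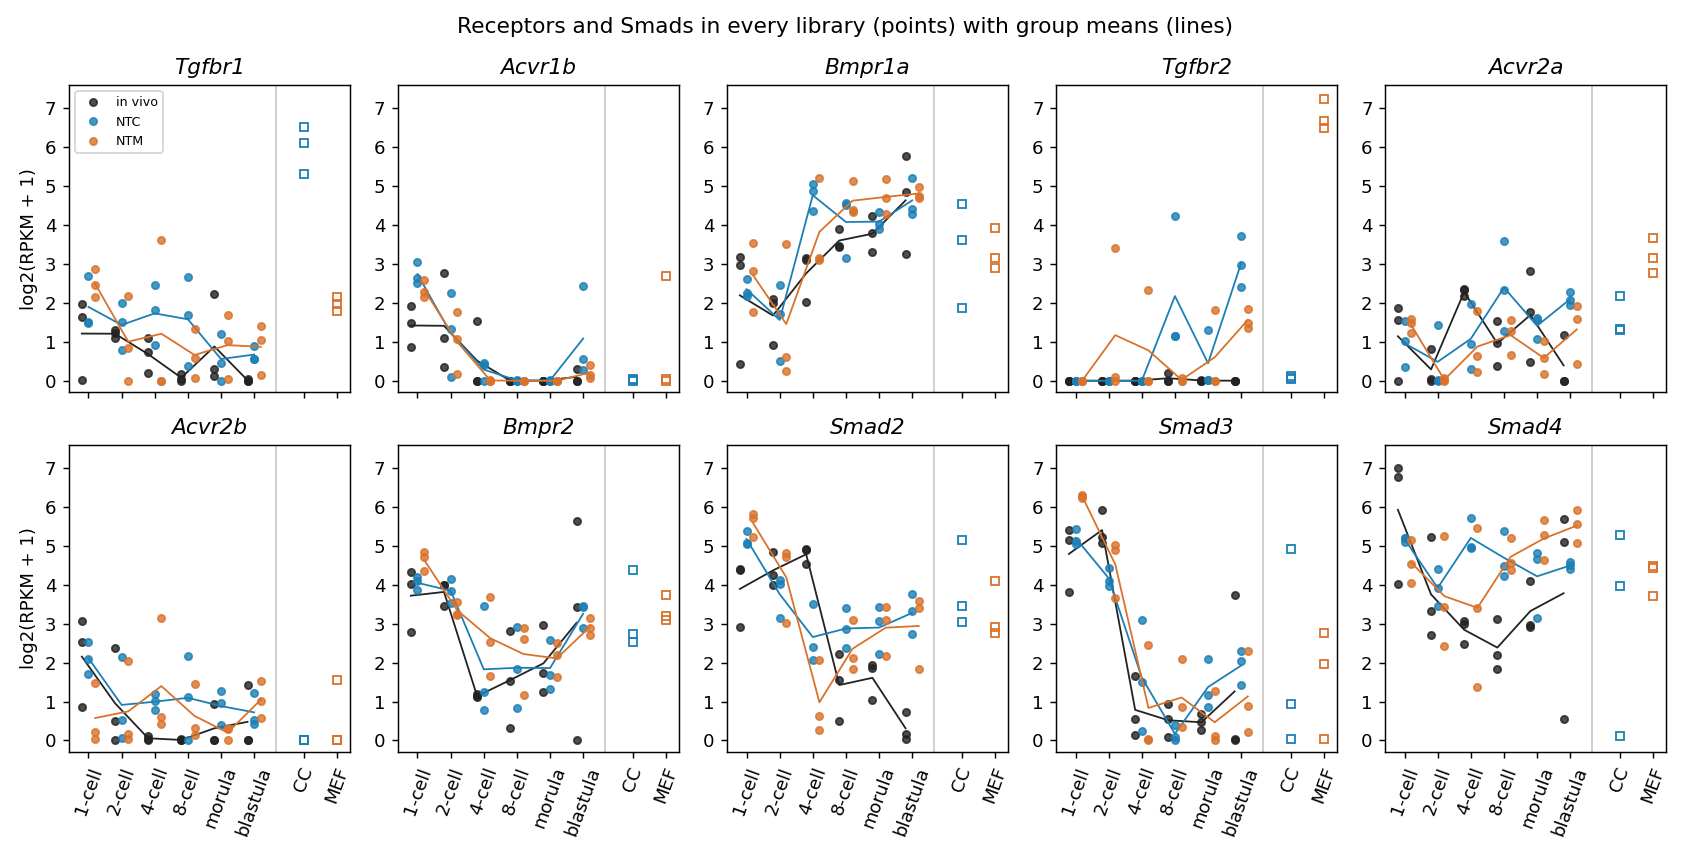
Level of each gene, as log2(RPKM + 1), in every embryo library by stage (filled points, coloured by embryo type, lines through the group means) and in CCs and MEFs (open squares, 3 libraries each). Smad3 lies between 11.6 and 77.9 RPKM in the 18 libraries of the 1-cell and 2-cell stages and at or under 12.4 RPKM in the 36 later ones.

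Among the type II receptors, Tgfbr2, which binds TGF-beta, was at 0 in 9 of 18 NTC and 10 of 18 NTM libraries. In in vivo embryos 16 of 18 libraries were at 0 and the highest, an 8-cell embryo, had 0.144 RPKM from 4 reads. All 9 libraries of 1-cell embryos were at 0. The NTC 8-cell embryos had 1.21, 1.22 and 17.7 RPKM and the NTC morulas 0.0113, 0.0133 and 1.48 RPKM. NTC blastulas had 12.1, 4.27 and 6.81 RPKM, from 766, 389 and 333 reads, and NTM blastulas had 1.54, 1.81 and 2.62 RPKM, from 132, 168 and 259 reads. All 6 NT blastulas therefore lay above the 3 in vivo blastulas, which were at 0.

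With the in vivo level set to 3 reads per library, Tgfbr2 was 138-fold higher in NTC than in in vivo blastulas (7.74 ± 4.01 RPKM, SD, n = 3). This floor covers counting error only. In vivo blastulas also had fewer genes above 0 (7730 to 7808, against 11771 to 13000 in NTC blastulas). The median over all genes was 0.85 log2 units higher in NTC blastulas. The limma log2 fold change of Tgfbr2 was 3.03 ± 0.55 (SE, adjusted p = 0.0285). Tgfbr2 passed the filter on low values only through the NTC group. The spreads were unequal, with a log2 SD of 0 in in vivo and 0.66 in NTC blastulas, a setting in which simulated unchanged genes were called too often. In NTM blastulas Tgfbr2 was 35.5-fold higher by the same floor (1.99 ± 0.56 RPKM, SD, n = 3), and the median over all genes was 0.86 log2 units higher. The log2 fold change of Tgfbr2 was 1.56 and did not pass the limma test (adjusted p = 0.0673), but did with a pseudocount of 0.1 (adjusted p = 0.0211) and with nuclear genes only (adjusted p = 0.0441). It was not called with no filter, under median-ratio scaling, with a replicate block, with library weights or in the fit over all groups. The median over all genes was 1.01 log2 units higher with nuclear genes only and 0.33 higher under median-ratio scaling. The call in NTC blastulas was lost with no filter on low values (adjusted p = 0.0749), without NTC blastula replicate 2 (log2 fold change 3.34, adjusted p = 0.0722), under median-ratio scaling (adjusted p = 0.0518) and with a replicate block (adjusted p = 0.102). From the NTC morula to the blastula Tgfbr2 rose by 2.58 ± 0.53 on the log2 scale (SE, adjusted p = 0.0238), and this call was kept only when NTC morula replicate 3 was left out and lost without any of the other libraries (log2 fold changes 2.23 to 2.89, adjusted p up to 0.0920). With no filter on low values its adjusted p was 0.108.

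In single earlier NT embryos Tgfbr2 was also present, with 9.64 RPKM in NTM 2-cell replicate 3, 4.06 RPKM in NTM 4-cell replicate 1 and 2.50 RPKM in NTM morula replicate 3, while the other libraries of those groups had at most 0.0759 RPKM. Among the donors, MEFs had 89.3, 101 and 150 RPKM and CCs 0.0839, 0.0463 and 0.0397 RPKM, so the NTC blastulas lay above their own donor cells (log2 fold change 2.95 ± 0.56, SE, adjusted p = 0.00863). Fibroblast markers in NTC blastulas summed to at most 0.364 RPKM, with Col1a1, Col1a2, Col3a1, Thy1, Dcn, Lum and Fbn1 at 0 in all 3. In NTM blastulas they summed to at most 5.51 RPKM, with Col1a1, Col3a1, Pdgfrb, Dcn and Lum at 0 in all 3. Cumulus and granulosa markers summed to 3.44 to 4.48 RPKM in NTC blastulas and to 2.45 to 6.72 RPKM in NTM blastulas. Foxl2, Fshr, Cyp11a1, Has2, Tnfaip6, Ptx3 and Inha were at 0 in all 3 NTC blastulas. Every marker of this list except Amhr2 was at 0 in all 3 NTM blastulas. Amhr2 alone had a mean of 3.63 RPKM in NTC and 4.00 RPKM in NTM blastulas.

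Acvr2a, an activin and BMP type II receptor, had its highest in vivo group mean at the 4-cell stage. It had 0.765, 0.0380 and 0 RPKM in the in vivo 2-cell libraries and 4.08, 4.00 and 3.52 RPKM in the 4-cell libraries. The groups did not overlap, and Acvr2a rose by 1.99 ± 0.38 (log2, SE, adjusted p = 0.00382). At the 8-cell stage it had 0.295, 0.950 and 1.91 RPKM, a fall of 1.32 ± 0.43 in log2 units (SE, adjusted p = 0.0366). This second call was kept without in vivo 8-cell replicate 3 and lost without any other library (log2 fold changes -1.37 to -1.03, adjusted p up to 0.0922), and under median-ratio scaling the value was -0.36 (adjusted p = 0.625). It was also lost with nuclear genes only (-1.04), with a pseudocount of 0.1, with no filter, with a replicate block and in the fit over all groups (adjusted p = 0.0539 to 0.156). Part of the Acvr2a exons (446 bases) overlaps exons of Orc4 on the opposite strand, and reads of the pair cannot be told apart without strand.

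Acvr2b, the close relative of Acvr2a, had its highest group mean at the 1-cell stage in in vivo and NTC embryos. NTC 1-cell embryos had 4.74, 2.29 and 3.28 RPKM and NTM 1-cell embryos 1.77, 0.154 and 0.0346 RPKM. The ranges did not overlap, and Acvr2b was lower in NTM (log2 fold change -1.54 ± 0.47, SE, adjusted p = 0.0442), but the call was kept only without NTM 1-cell replicate 1 (adjusted p up to 0.135 without any of the others, log2 fold changes -1.73 to -1.27). It was also lost with a pseudocount of 0.1, with no filter, under median-ratio scaling and in the fit over all groups (adjusted p = 0.0557, 0.123, 0.0587 and 0.180). The in vivo 1-cell embryos had 0.819, 7.39 and 4.78 RPKM and overlapped both.

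Bmpr2, the BMP type II receptor, was plentiful at the first stages. It had 15.0, 9.89 and 15.1 RPKM in in vivo 2-cell embryos and 1.27, 1.15 and 1.19 RPKM in in vivo 4-cell embryos. The libraries of each group lay close together and Bmpr2 fell by 2.68 ± 0.35 in log2 units (SE, adjusted p = 0.000618). In NTC embryos the same step went from 16.8, 10.7 and 13.4 RPKM to 0.734, 9.88 and 1.37 RPKM, with a log2 fold change of -2.02 that missed the limit (adjusted p = 0.0527) and was called under median-ratio scaling, with a replicate block, with library weights and in the fit over all groups (adjusted p = 0.0334, 0.0480, 0.0442 and 0.0315). In vivo blastulas differed widely, with 9.69, 0.00650 and 48.9 RPKM, and no comparison at that stage was called.

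Among the type I receptors Bmpr1a, which carries BMP signals, had the highest group means in embryos from the 4-cell stage on. In vivo embryos had 7.83, 7.62 and 3.07 RPKM at the 4-cell stage, 9.75, 14.0 and 10.1 RPKM at the 8-cell stage and 8.63, 53.9 and 27.9 RPKM in blastulas. NTC embryos had 0.427, 4.49 and 2.29 RPKM at the 2-cell stage and 28.3, 19.6 and 32.3 RPKM at the 4-cell stage. This was a rise of 3.20 ± 0.58 in log2 units (SE, adjusted p = 0.00331), and every NTC 4-cell embryo lay above every in vivo one (log2 fold change 2.01 ± 0.43, SE, adjusted p = 0.00865). NTM 4-cell embryos had 35.9, 7.98 and 7.59 RPKM, and their difference from in vivo embryos was not called. Exons of Bmpr1a share 290 bases with Gm17110 on the opposite strand.

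Tgfbr1, the TGF-beta type I receptor, was low in embryos, with at most 11.3 RPKM in NTM 4-cell replicate 2. In the other NTM 4-cell libraries it was at 0. No comparison between embryo groups called Tgfbr1. Acvr1b, the activin and Nodal type I receptor, was measured in every 1-cell embryo, with 7.30, 4.71 and 5.25 RPKM in NTC, 3.89, 5.06 and 3.40 RPKM in NTM and 0.824, 2.79 and 1.77 RPKM in vivo. In vivo 2-cell replicate 1 had 5.83 RPKM. It was at 0 in all in vivo 8-cell embryos and morulas and in all NTM 8-cell embryos and morulas. NTC blastula replicate 3 stood out with 4.37 RPKM against 0.463 and 0.214 RPKM in the other NTC blastulas.

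Smad3, a receptor-regulated Smad of the TGF-beta and activin branch, marked the first cleavages. In vivo it had 13.2, 41.2 and 34.7 RPKM at the 1-cell stage, 36.2, 32.7 and 59.9 RPKM at the 2-cell stage and 0.0961, 0.472 and 2.18 RPKM at the 4-cell stage. The fall from the 2-cell to the 4-cell stage was 4.62 ± 0.51 in log2 units (SE, adjusted p = 0.000292), and it was called whichever library was left out. NTC embryos went from 16.2, 20.5 and 14.8 RPKM to 0.189, 1.83 and 7.58 RPKM, and NTM embryos from 28.6, 11.6 and 31.7 RPKM to 0.0311, 0 and 4.51 RPKM.

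The log2 fold change of that step was -2.55 ± 0.70 in NTC (SE, adjusted p = 0.0217) and -3.69 ± 0.85 in NTM embryos (SE, adjusted p = 0.0137), and neither differed from the in vivo step in the interaction test. The NTC call was kept only without NTC 4-cell replicate 3 (adjusted p up to 0.0864 without the others, log2 fold changes -2.65 to -1.87) and lost with no filter (adjusted p = 0.0531), and the NTM call was lost without NTM 2-cell replicate 1 (-3.51, adjusted p = 0.0554) or replicate 3 (-3.43, adjusted p = 0.0603).

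NTM 1-cell embryos had more Smad3 than NTC 1-cell embryos. They had 74.2, 77.3 and 77.9 RPKM against 42.6, 31.9 and 34.0 RPKM, with no overlap (log2 fold change 1.07 ± 0.19, SE, adjusted p = 0.00484). Without NTC 1-cell replicate 2 the difference was 0.99 (adjusted p = 0.0270), just under the fold limit, and in the fit over all groups the adjusted p was 0.696. Smad3 then fell from the 1-cell to the 2-cell stage in NTM (log2 fold change -1.75 ± 0.43, SE, adjusted p = 0.0392) and in NTC embryos (-1.03 ± 0.27, SE, adjusted p = 0.0370). The NTM fall was not called without any of the 1-cell libraries or without NTM 2-cell replicate 2 (-1.77 to -1.32, adjusted p up to 0.164), and the NTC fall was called only without NTC 2-cell replicate 2 (-1.12 to -0.91, adjusted p up to 0.148 for the others). Both were lost under median-ratio scaling, at -1.32 (adjusted p = 0.157) and -0.75 (adjusted p = 0.105). They were also lost with nuclear genes only (adjusted p = 0.0656 and 0.0559), with a replicate block (0.0504 and 0.0781) and in the fit over all groups (0.183 and 0.610), and the NTM fall with no filter (0.0862).

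Smad2, the other receptor-regulated Smad of this branch, followed another course. In vivo embryos had 27.8, 15.1 and 18.1 RPKM at the 2-cell stage, 28.5, 29.3 and 22.3 RPKM at the 4-cell stage and 3.66, 0.408 and 1.94 RPKM at the 8-cell stage. The fall from the 4-cell to the 8-cell stage was 3.36 ± 0.49 in log2 units (SE, adjusted p = 0.00131). NTC 4-cell embryos had 10.3, 3.19 and 4.31 RPKM and NTM 4-cell embryos 0.194, 0.548 and 3.16 RPKM, all under the lowest in vivo value.

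Smad2 was lower than in vivo at the 4-cell stage in NTC (log2 fold change -2.13 ± 0.44, SE, adjusted p = 0.00760) and in NTM embryos (-3.80 ± 0.60, SE, adjusted p = 0.00466), and both calls were kept whichever single library was left out. With a replicate number left out of both groups, the NTC call was lost without number 2 or 3 (limma adjusted p = 0.0828 and 0.0804). The NTM call was lost without number 1 or 2 (adjusted p = 0.0755 and 0.0723). In NTM embryos the fall to this level from 25.4, 27.4 and 7.12 RPKM at the 2-cell stage was called (log2 fold change -3.21 ± 0.79, SE, adjusted p = 0.0179). That call was lost without NTM 2-cell replicate 1 or 2 or NTM 4-cell replicate 1 or 2 (-3.03 to -2.85, adjusted p up to 0.0808). In NTC embryos the called fall was that from the 1-cell to the 2-cell stage, from 32.9, 40.7 and 32.3 RPKM to 16.3, 7.80 and 15.3 RPKM (log2 fold change -1.41 ± 0.34, SE, adjusted p = 0.0251), a call lost without any of the 1-cell libraries (-1.47 to -1.31, adjusted p up to 0.128) and under median-ratio scaling (-1.13, adjusted p = 0.0790), with no filter (0.0536) and in the fit over all groups (0.137).

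The difference between embryo types in these steps was tested as an interaction. From the 4-cell to the 8-cell stage the change of Smad2 exceeded that of in vivo embryos by 3.58 ± 0.76 for NTC (log2, SE, adjusted p = 0.00554) and by 4.73 ± 0.86 for NTM (log2, SE, adjusted p = 0.00257), and both were called whichever single library was left out. With a replicate number left out of all groups, the NTC call was lost without number 2 or 3 (limma adjusted p = 0.0759 and 0.0724). The NTM call was lost without number 2 (adjusted p = 0.0823). From the 2-cell to the 4-cell stage the NTM change was -3.62 ± 0.88 relative to in vivo (log2, SE, adjusted p = 0.0217), a call lost without in vivo 2-cell replicate 2, in vivo 4-cell replicate 1 or 2 or NTM 2-cell replicate 2 (-3.57 to -3.30, adjusted p up to 0.0560). These comparisons share the in vivo libraries. The median over all genes had the same sign, at 0.88 in both tests of the 4-cell to 8-cell step and -0.39 in the NTM test of the 2-cell to 4-cell step. In the in vivo step from the 4-cell to the 8-cell stage the median over all genes was -1.05.

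From the 8-cell stage on the 18 NT libraries had 2.57 to 12.5 RPKM of Smad2 and the 9 in vivo libraries 0.0245 to 3.66 RPKM. NTC blastulas had 12.5, 9.09 and 5.68 RPKM and in vivo blastulas 0.126, 0.658 and 0.0245 RPKM, a log2 fold change of 2.97 ± 0.58 (SE, adjusted p = 0.0315). This call was lost without in vivo blastula replicate 3 (2.83, adjusted p = 0.0501), NTC blastula replicate 1 (2.73, adjusted p = 0.0512) or NTC blastula replicate 2 (2.94, adjusted p = 0.0761), with no filter (adjusted p = 0.0749), under median-ratio scaling (2.46, adjusted p = 0.0597) and with a replicate block (adjusted p = 0.105). NTM blastulas had 10.9, 9.62 and 2.57 RPKM, with a log2 fold change of 2.63 that was not called (adjusted p = 0.0684). It was called with a pseudocount of 0.1, with nuclear genes only, with library weights and in the fit over all groups (adjusted p = 0.0379, 0.0308, 0.0446 and 0.00118). It was not called with no filter, under median-ratio scaling or with a replicate block.

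Smad4, the common partner of the receptor-regulated Smads, was measured at 0.469 RPKM or more in every embryo. In vivo 4-cell embryos had 7.40, 4.56 and 6.93 RPKM and NTC 4-cell embryos 29.6, 30.2 and 51.4 RPKM. There was no overlap, and Smad4 was higher in NTC embryos by 2.36 ± 0.38 (log2, SE, adjusted p = 0.00201), although in the fit over all 20 groups the adjusted p was 0.0790. NTM 4-cell embryos spread over 9.49, 1.57 and 43.3 RPKM. At the 8-cell stage NTM embryos had 22.7, 19.7 and 36.1 RPKM against 7.68, 3.57 and 2.60 RPKM in vivo (log2 fold change 2.33 ± 0.50, SE, adjusted p = 0.0452), a call kept only without in vivo 8-cell replicate 1 (2.06 to 2.50, adjusted p up to 0.180 without the others) and lost with no filter and in the fit over all groups (adjusted p = 0.162 and 0.303). NTC 8-cell embryos, at 17.8 to 40.7 RPKM, also lay above every in vivo one, but the difference was not called. Their mean log2 level was 4.69, beside 4.72 in NTM and 2.39 in in vivo embryos.

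At the 1-cell stage Smad4 had 126 and 108 RPKM in in vivo replicates 2 and 3 and 15.3 RPKM in replicate 1, the library that stood apart. NTC 1-cell embryos had 36.1, 35.6 and 33.4 RPKM and NTM 34.6, 15.4 and 22.0 RPKM, and no difference from in vivo was called. Without in vivo 1-cell replicate 1, which was left out after its values were seen, Smad4 fell below the in vivo level for NTC (log2 fold change -1.71 ± 0.19, SE, adjusted p = 0.00139) and for NTM (-2.30 ± 0.35, SE, adjusted p = 0.0101), and Smad2 was higher in NTM (1.20 ± 0.28, SE, adjusted p = 0.0422). From the 1-cell to the 2-cell stage Smad4 fell by 1.25 ± 0.31 in NTC embryos (log2, SE, adjusted p = 0.0301), to 14.0, 9.91 and 20.2 RPKM. This call was lost without any NTC 1-cell library (-1.29 to -1.23, adjusted p up to 0.128) and under median-ratio scaling (-0.97, adjusted p = 0.0801), with no filter, with a replicate block and in the fit over all groups (adjusted p = 0.0547, 0.0511 and 0.566).

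**Figure D2:**
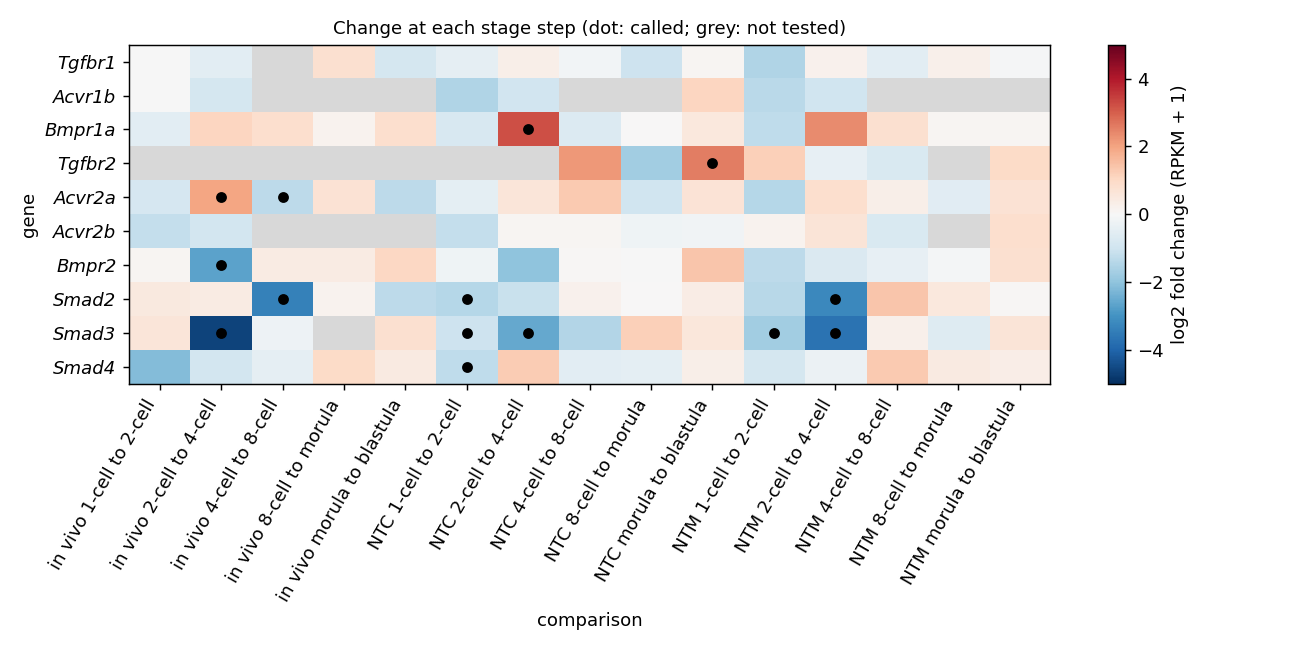
Log2 fold change on RPKM + 1 of each gene at the 5 stage steps of in vivo, NTC and NTM embryos. Dots mark called changes and grey cells genes under the filter. Smad3 carries a dot at the step from the 2-cell to the 4-cell stage in all 3 embryo types.

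Over the in vivo steps 5 member changes were called, 3 from the 2-cell to the 4-cell stage and 2 from the 4-cell to the 8-cell stage. The share of all tested genes called was 0%, 52.2%, 43.7%, 0.0116% and 0.801% for the 5 in vivo steps in order. At the step with 52.2% of all genes called, 3 of 9 tested members were. Over the NTC steps 6 changes were called, 3, 2 and 1 at the steps from 1-cell to 2-cell, 2-cell to 4-cell and morula to blastula, with shares of all genes of 13.5%, 36.6%, 0.0564%, 0% and 7.16% in order. Over the NTM steps 3 were called, and the shares were 9.4%, 26.4%, 0.363%, 0% and 4.22%. The median log2 fold change of the members at the step from the 2-cell to the 4-cell stage was -0.90 in in vivo embryos, 0.08 for NTC and -0.35 for NTM, beside 0.36, -0.20 and -0.20 over all genes.

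**Figure D3:**
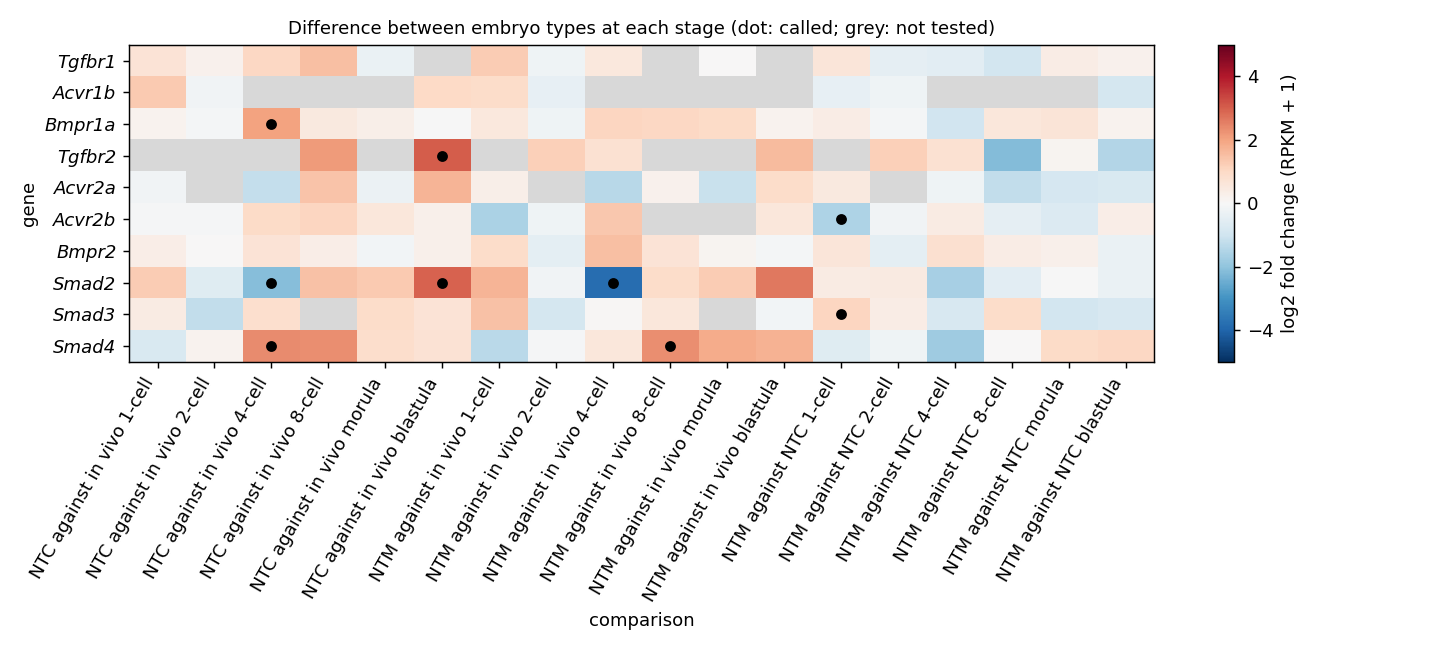
Log2 fold change on RPKM + 1 of each gene between embryo types at each stage, with dots for called differences and grey cells for genes under the filter. At the 4-cell stage Smad2 is lower in both NT types and Smad4 and Bmpr1a are higher in NTC than in vivo.

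Between NTC and in vivo embryos 5 member differences were called, 3 at the 4-cell stage and 2 in blastulas, and the share of all genes called was 1.16%, 0.152%, 27.8%, 1.46%, 0.0321% and 9.46% over the 6 stages. Between NTM and in vivo embryos 2 were called, 1 each at the 4-cell and 8-cell stages, with shares of 1.28%, 0.141%, 21.1%, 2.02%, 0.168% and 0.746%. Between NTM and NTC embryos 2 were called, both at the 1-cell stage, with shares of 19.8%, 0%, 0%, 0.0507%, 0% and 0%. At the 4-cell stage 3 of 8 tested members in NTC and 1 of 9 in NTM embryos were called. In the interaction tests 3 were called, all of Smad2, with shares of all genes of 0.0256%, 14.3%, 19.5%, 0% and 0.236% for the NTC steps and 0.204%, 9.91%, 18.7%, 0.0335% and 0.647% for the NTM steps.

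The counts of 0 genes called by limma stood beside 615 genes at an unadjusted p under 0.05 for the first in vivo step and 1270 and 843 for the NTC and NTM steps from the 8-cell stage to the morula. They stood beside 772, 602, 1534 and 315 for NTM against NTC at the 2-cell and 4-cell stages and in morulas and blastulas, and 832 for the NTC interaction from the 8-cell stage to the morula.

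The median of all genes at the 4-cell stage was itself shifted by -0.39 in NTC and -0.69 in NTM embryos against in vivo, and by 0.85 and 0.86 in blastulas. Scaled to nuclear genes only, the 4-cell differences were -1.74 for Smad2, 2.83 for Smad4 and 2.48 for Bmpr1a in NTC and -3.64 for Smad2 in NTM embryos (log2 fold changes, adjusted p = 0.0250, 0.00103, 0.00408 and 0.0110). With median-ratio scaling they were -1.69, 2.78, 2.42 and -3.26 (adjusted p = 0.0269, 0.00106, 0.00388 and 0.0104). All 4 were called under both scalings, and all 4 rest on the same in vivo 4-cell libraries.

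**Figure D4:**
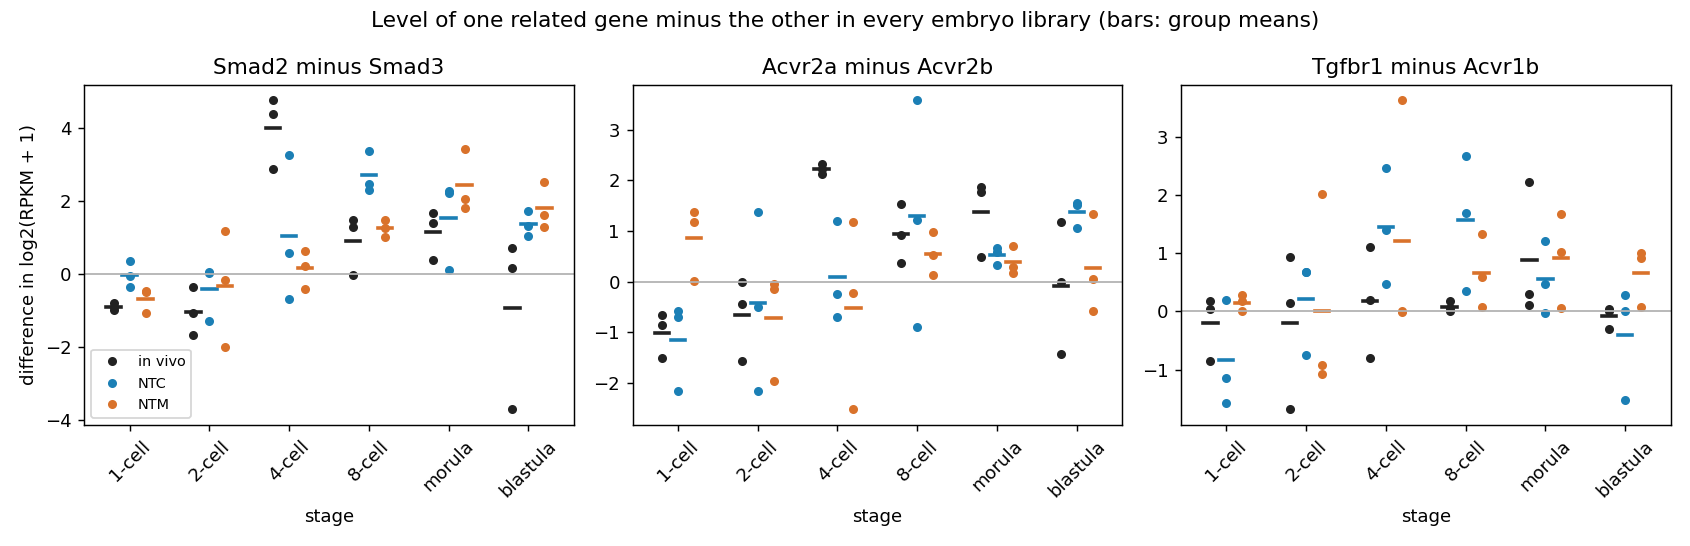
Difference in log2(RPKM + 1) between related genes, Smad2 minus Smad3, Acvr2a minus Acvr2b and Tgfbr1 minus Acvr1b, in every embryo library by stage, with bars for the group means. In vivo 4-cell embryos lie between 2.88 and 4.75 for Smad2 minus Smad3, above 0.59 on average in NT embryos.

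The balance of related genes was compared between the 6 NT and 3 in vivo libraries of each stage with an exact two-sided permutation test (84 arrangements, smallest possible p = 0.0119). Smad2 minus Smad3 was 4.00 ± 0.99 in in vivo (SD, n = 3) and 0.59 ± 1.40 in NT 4-cell embryos (SD, n = 6, exact permutation p = 0.0238), and -0.95 ± 2.41 in in vivo (SD, n = 3) and 1.58 ± 0.52 in NT blastulas (SD, n = 6, exact permutation p = 0.0119). Acvr2a minus Acvr2b was 2.22 ± 0.10 in in vivo and -0.22 ± 1.38 in NT 4-cell embryos (exact permutation p = 0.0357), and 1.38 ± 0.77 and 0.46 ± 0.22 in morulas (exact permutation p = 0.0476). The remaining 14 of 18 tests, including all 6 of Tgfbr1 minus Acvr1b, had a p above 0.05. After Benjamini-Hochberg adjustment over the 18 tests none passed, with the lowest adjusted p at 0.214 in this exact permutation test. A single ratio at the smallest possible p of 0.0119 can reach only that adjusted value. Several ratios would have to be at the smallest p for any to pass, so this outcome does not show that the balance was equal.

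**Figure D5:**
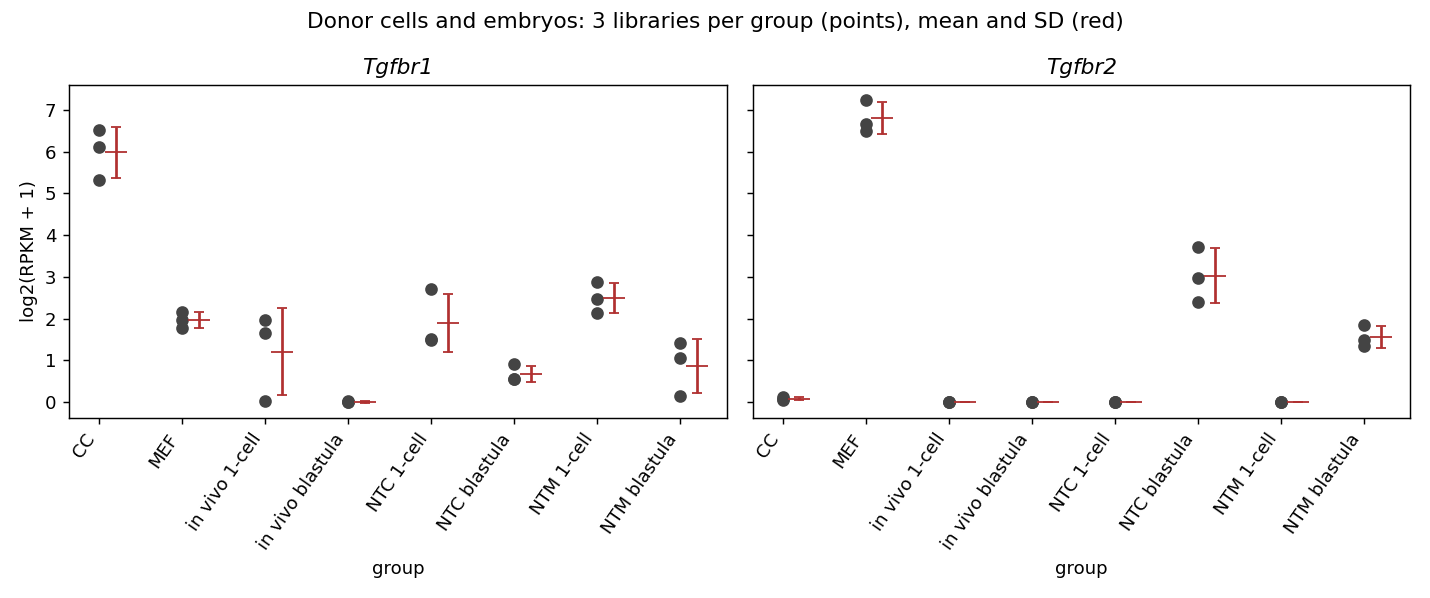
Tgfbr1 and Tgfbr2 as log2(RPKM + 1) in CCs, MEFs and the 1-cell embryos and blastulas of each type, with points for the 3 libraries and red marks for the mean and SD. Tgfbr1 is highest in CCs and Tgfbr2 in MEFs.

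The donor cells had opposite TGF-beta receptors. Tgfbr1 had 38.9, 91.1 and 68.3 RPKM in CCs and 2.90, 3.46 and 2.44 RPKM in MEFs (log2 fold change of MEFs against CCs -4.02 ± 0.54, SE, adjusted p = 0.00304). Tgfbr2 was higher in MEFs by 6.72 ± 0.54 (log2, SE, adjusted p = 0.000193). These were the 2 of 9 tested members called between the donors, where 6.29% of all genes were called. Libraries of 1 donor type also disagreed, as Smad3 had 0.0338, 29.3 and 0.926 RPKM and Smad4 14.6, 0.0767 and 37.6 RPKM in the 3 CC libraries.

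The NT embryos were then compared with their own donor cells. Only the donor nucleus entered the oocyte, and oocyte markers were high in every 1-cell library. The 1-cell differences therefore set the RNA of an oocyte beside that of a donor cell, and do not measure a change in the donor's own RNA. In NTC 1-cell embryos Tgfbr1 was lower than in CCs by a log2 fold change of -4.09 ± 0.49 (SE, adjusted p = 0.00103) and Acvr1b higher by 2.71 ± 0.27 (SE, adjusted p = 0.000460). Acvr2b, at 0 in all CCs, was 66.9-fold higher with the CC level set to 3 reads per library. In NTM 1-cell embryos Tgfbr2 was at 0, as in all 9 1-cell libraries, and with that level set to 3 reads per library it was 2728-fold lower than in MEFs. Both floors cover counting error only. Smad3 was higher than in MEFs by 4.69 ± 0.67 (log2, SE, adjusted p = 0.00108), Smad2 by 2.32 ± 0.43 (adjusted p = 0.00333, limma) and Bmpr2 by 1.30 ± 0.31 (adjusted p = 0.0111, limma, and 0.151 in the fit over all groups), and Acvr2a was at -1.76 ± 0.34 (adjusted p = 0.00429, limma). The 3 and 5 calls stand beside shares of all genes of 50% (NTC against CCs) and 55.2% (NTM against MEFs).

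In NTC blastulas Tgfbr1, at 0.475, 0.466 and 0.869 RPKM, was at -5.31 ± 0.49 against CCs (log2 fold change, SE, adjusted p = 0.000539). In NTM blastulas Tgfbr2 was at -5.24 ± 0.42 against MEFs (log2 fold change, SE, adjusted p = 7.73e-05). Acvr2a (-1.87, adjusted p = 0.0332), Bmpr1a (1.49, adjusted p = 0.0330) and Smad4 (1.32, adjusted p = 0.0482) were also called there by limma, and each of these 3 was kept in only 1 of 6 omissions of a library, with MEF replicate 1, MEF replicate 3 and NTM blastula replicate 3 left out respectively. Their values without the other libraries reached adjusted p of 0.0910, 0.0983 and 0.141. Other settings also ended these calls, with adjusted p up to 0.0720 for Acvr2a (no filter), 0.102 for Bmpr1a and 0.330 for Smad4 (both in the fit over all groups). The 2 and 4 calls stand beside 24.2% (NTC against CCs) and 30.8% (NTM against MEFs) of all genes.

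Other genes of the pathway were taken from a list of 53 ligands, further receptors and Smads, antagonists and targets, of which 51 were in the table. From the 2-cell to the 4-cell stage 7 rose and 12 fell of 26 tested in in vivo embryos, with a median log2 fold change of -1.88, beside 52.2% of all genes called and a median of 0.36 over all genes. The 4 largest were Bmp15, an oocyte ligand (-7.96), Tgfb2, a TGF-beta ligand (-5.14), Id3, a BMP target (4.53), and Tdgf1, the Nodal co-receptor (4.52). In NTC embryos, where 36.6% of all genes were called, 1 rose and 11 fell of 27, led by Bmp15 (-6.45), Tgfb2 (-6.37), Amhr2, the anti-Müllerian hormone receptor (4.27), and Tgfbr3, the betaglycan co-receptor (-3.73). In NTM embryos, with 26.4% of all genes called, 1 rose and 10 fell of 27, led by Bmp15 (-6.61), Tgfb2 (-6.25), Amhr2 (4.07) and Tgfb3 (-4.04).

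At the 4-cell stage 2 pathway genes were higher and 3 lower in NTC than in in vivo embryos, of 25 tested, beside 27.8% of all genes called. Tdgf1 had a mean of 0.326 RPKM in NTC and 22.8 RPKM in in vivo embryos (log2 fold change -4.16), and Id3 3.24 and 29.9 RPKM (-2.91). Smurf2, a ubiquitin ligase that acts on the receptors and Smads, was at 2.40, and Fstl3, a follistatin-like antagonist of activin, was called with a mean of 4.15 RPKM in in vivo embryos and 0 in all NTC embryos. In NTM embryos 1 of 27 was called, Id3 at -2.29, beside 21.1% of all genes. From the NTC morula to the blastula 5 rose and 2 fell of 26, beside 7.16% of all genes called, among them Id2 (4.54), Foxh1, a nuclear partner of Smad2 (2.28), Id3 (-2.19) and Id1 (-1.99). Between MEFs and CCs 6 were higher and 1 lower in MEFs of 37 tested, beside 6.29% of all genes called, among them Inha, the inhibin subunit of granulosa cells (-6.70), Tgfbr3 (5.09) and Ccn2, a TGF-beta target (4.37).

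Across the 20 group means of log2(RPKM + 1) the gene most like each member among 13525 others was found as a description. Pearson's r was highest for Smad3 with Tbc1d14 (0.978) and Tgfbr2 with Capn6 (0.959), and lowest for Smad4 with Ccnyl1 (0.793). Acvr1b matched Mfsd4b4 (0.953), Bmpr2 Golph3l (0.940), Bmpr1a Serbp1 (0.937), Tgfbr1 Runx2 (0.932), Smad2 Brox (0.903), Acvr2a Exoc3 (0.842) and Acvr2b Tspan13 (0.803). Among the members themselves the most alike pair was Acvr1b and Smad3 (r = 0.890) and the most unlike Bmpr1a and Smad3 (r = -0.767). The points share their libraries and stages, and groups of embryos of 1 type follow each other in development.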

How the data were processed

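Libraries of single embryos and donor cells were amplified and sequenced, and the authors deposited RPKM values for 27238 genes in 60 libraries. The study's methods name Bowtie2, TopHat and HTSeq with a UCSC reference, whereas the submitters' processing notes name Bowtie 0.12.2 and mm8, so the build is uncertain. The deposited RPKM values divide into whole reads (within 0.1) for 99.96% of values, at GENCODE M21 exon lengths for 20662 genes and by their own steps for 5819, which gave the depths. Symbols matched 27013 identifiers.

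Groups came from the labels. Pairs of groups were compared with limma 3.58.1 (lmFit, eBayes with trend) in R 4.3.3 on log2(RPKM + 1), for genes whose mean RPKM reached 0.5, with Benjamini-Hochberg adjustment over all genes tested. Stage steps were compared between embryo types by interaction terms. Python 3.11.15 did the exact permutation tests. The fits were tested on simulated data. Where groups shared the same spread the p-values were calibrated, and where spreads differed between groups too many unchanged genes were called. How often changes of the members near the fold limit were missed was not tested, so an uncalled member is not shown to be unchanged.

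Named genes were the 10 members, the pathway list (counts, and the 4 largest called, of which 1 is not reported here) and the gene most like each member. Members and lists were chosen with earlier results of these data known. Same-numbered libraries did not deviate together (correlations -0.181 to 0.119 in 38 comparisons, none with all over 0.1), so replicate numbers did not pair samples. The alternatives were a pseudocount of 0.1, no filter, median-ratio scaling, nuclear genes only, a joint fit of the 20 groups, the replicate number as a block, calls with no fold limit, and left-out libraries. Library weights (limma arrayWeights) were added after seeing the data and the simulation.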

Additional observations from a re-analysis of the deposited data

Results flagged for a closer look

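The change of Smad2 between stages differed between embryo types in 3 interaction tests of the difference itself (limma, Benjamini-Hochberg adjustment across the genes tested). Between the 4-cell and the 8-cell embryo it was 3.58 log2 units higher in NTC than in in vivo embryos (SE 0.76, adjusted p = 0.00554) and 4.73 higher in NTM than in in vivo embryos (SE 0.86, adjusted p = 0.00257). From the 2-cell to the 4-cell stage it was -3.62 in NTM relative to in vivo embryos (SE 0.88, adjusted p = 0.0217). All 3 use the in vivo 4-cell libraries, and both NTM tests use the same NTM 4-cell libraries. The median over all genes was 0.88, 0.88 and -0.39 in these 3 tests, in the same order. NT 4-cell embryos had a higher mitochondrial share than in vivo ones, and with nuclear genes only the 3 differences were 3.36, 4.76 and -3.52 (limma adjusted p = 0.0169, 0.00668 and 0.0330).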

How the results depend on the processing

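No value of the 42 called changed sign under any alternative run, and 24 calls were kept with each single library left out. Of the 42, 38 were kept with a pseudocount of 0.1, 30 with no filter, 34 under median-ratio scaling, 38 with nuclear genes only, 30 in the fit over all 20 groups and 42 with library weights. The number of members called moved as follows, and the cause was not tested. For the NTC steps it was 2 with no filter, against 6. For NTC against in vivo, 5 in the main test, it was 3 with no filter, 3 under median-ratio scaling and 3 with a replicate block. For NTM against in vivo, 2 in the main test, it was 4 with a pseudocount of 0.1, 1 with no filter, 4 with nuclear genes only and 7 with library weights. For NTM against NTC, 2 in the main test, it was 1 with a pseudocount of 0.1, 1 with no filter, 1 under median-ratio scaling and 0 in the fit over all groups. For the interactions, 3 in the main test, it was 5 under median-ratio scaling and 5 with library weights. Leaving out each replicate number in turn gave 1 to 2 for the NTC steps, 0 to 2 for the NTM steps, 1 to 3 for NTC against in vivo, 0 to 2 for NTM against in vivo, 0 to 1 for NTM against NTC and 0 to 3 for the interactions. With the replicate block 34 of 42 calls were kept, but the replicate numbers did not pair the libraries. The ratio tests were not run without a replicate number, since an exact permutation of 4 against 2 libraries cannot pass the threshold. Depth was 5294167 reads or more, and 3 libraries a group limit the precision.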
